A study of Sus scrofa with 23 samples.

Results

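The genes described here carry phosphate across kidney tubule cells, or receive the hormone signals that set how much phosphate is reabsorbed. They were chosen as a list of symbols: the sodium-phosphate cotransporters SLC34A1, SLC34A2, SLC34A3, SLC20A1 and SLC20A2, the phosphate exporter XPR1, the scaffold protein SLC9A3R1, the parathyroid hormone receptor PTH1R, the co-receptor KL (Klotho) and the fibroblast growth factor receptor FGFR1. All 10 were found among the 26687 gene symbols of the transcript table, and all 10 passed the filter on low counts that left 20921 genes for testing.

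Kidney cortex was taken from 23 newborn pigs, and stranded total RNA depleted of ribosomal RNA was sequenced. The CF group held 11 pigs labelled CFTR-/-, in which both copies of the gene for the chloride channel CFTR are disrupted. The HET group held 6 pigs labelled CFTR+/-, and the WT group held 6 wild-type pigs. The study compared CF with non-CF pigs, which here means HET and WT together (n = 12), and the labels also allow each genotype to be set against the others.

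The estimated counts summed to between 32901281 and 52952273 per library. The median total was 43636298 in CF, 47476461 in HET and 42709608.5 in WT libraries. A gene's values in different libraries were compared as CPM (counts divided by the library's total, times 1e6) scaled by trimmed mean of M-values (TMM) factors, and levels of different genes as TPM, which also divides by transcript length. The 3 counts that a count of 0 would allow correspond to between 0.0567 and 0.0912 CPM per library, for counting error only, and the lowest count of any member in any library was 20, for SLC34A2.

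As background, phosphate filtered in the kidney is taken back mainly by the proximal tubule, where cotransporters of the SLC34 family in the brush border move phosphate together with sodium. Parathyroid hormone, acting through PTH1R, and the bone hormone FGF23, acting through FGFR1 bound to KL, lower reabsorption by removing these cotransporters from the membrane, to which SLC9A3R1 (also called NHERF1) tethers them. SLC20A1 and SLC20A2 are sodium-phosphate cotransporters found in most cells, and XPR1 is the known phosphate exporter.

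CFTR, the gene altered in these pigs, was read first as a check of the labels. It is gene 403154, at 28627717 to 28818209 on the minus strand of chromosome 18 of the Sscrofa11.1 assembly. Its level was 2.26 ± 0.794 CPM (SD, n = 6) in WT, 12.6 ± 2.76 CPM (SD, n = 6) in HET and 19.9 ± 3.21 CPM (SD, n = 11) in CF libraries. The WT libraries reached 3.67 CPM at most and lay below every other library, while the HET range of 9.41 to 17.5 CPM overlapped the CF range of 12.5 to 23.5 CPM. In an edgeR quasi-likelihood fit of the 3 labels over all 20921 genes, with p-values adjusted by Benjamini and Hochberg's method, the log2 fold change was 3.14 for CF against WT (adjusted p 1.23e-10) and 2.47 for HET against WT (adjusted p 5.07e-08), and for CF against HET it was 0.66 (adjusted p 0.190). CFTR RNA thus separated the WT label from the others, but with more of it where alleles are disrupted, so the 3 groups are called by their labels.

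The libraries also divide in a way that the labels do not name. Pigs 1 to 6 and 12 to 18 (13 libraries: 6 CF, 3 HET and 4 WT), called the earlier pig numbers, stand apart from pigs 7 to 11 and 19 to 23 (10 libraries: 5 CF, 3 HET and 2 WT), the later pig numbers, as seen when libraries were placed by multidimensional scaling of log2 CPM, on axis 2 (10.6% of the variance). Axis 1 (17.2%) divides libraries within both sets and within each label. The split was originally found from the expression of these same libraries. Counts, p-values and calls of genes that differ between the sets are thus not independent of how the sets were drawn. The members' log2 fold changes for CF against non-CF are therefore also given within each set, while listed genes were tested over all libraries.

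The labelled tissue was checked against marker lists, as summed TPM over all 23 libraries. The 14 proximal tubule markers summed to 2697 ± 447 TPM (SD, n = 23). The 8 markers of Henle's loop and the distal tubule summed to 666 ± 106 TPM (SD, n = 23), led by UMOD at 189 TPM, and the 8 of the collecting duct to 271 ± 32.8 TPM (SD, n = 23), led by ATP6V1B1 at 80.7 TPM. Podocyte markers (6 genes) summed to 301 ± 56.2 TPM (SD, n = 23). The tubule and glomerulus markers of cortex were thus all present. Among other cells, 6 stroma and smooth muscle markers summed to 732 ± 168 TPM (SD, n = 23) with COL3A1 the most abundant at 392 TPM, and 5 endothelial markers to 147 ± 17.1 TPM (SD, n = 23) with PECAM1 at 51.0 TPM. The 5 erythroid markers in the table summed to 376 ± 178 TPM (SD, n = 23), most of it HBB at 362 TPM. Lower sums were found for 6 nephron progenitor markers (17.9 ± 2.60 TPM, SD, n = 23, led by SALL1 at 10.5 TPM), 6 immune markers (15.3 ± 2.15 TPM, SD, n = 23, led by CD68 at 5.48 TPM) and 5 adrenal cortex markers (4.02 ± 0.846 TPM, SD, n = 23, led by CYP11A1 at 2.46 TPM). No marker was at 0 in all libraries, and those that averaged under 1 TPM included SIX2, CITED1, OSR1, CD3E, CYP17A1, CYP21A2 and MC2R.

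On the TPM scale the members covered a wide span of levels. SLC34A1 was the most abundant, at 429 ± 41.9 TPM (SD, n = 6) in WT, 378 ± 80.9 TPM (SD, n = 6) in HET and 441 ± 98.1 TPM (SD, n = 11) in CF libraries, and its mean ranked 133 among the 20921 genes. SLC9A3R1 followed with 172 ± 26.7 TPM (SD, n = 6) in WT, 158 ± 50.1 TPM (SD, n = 6) in HET and 148 ± 26.7 TPM (SD, n = 11) in CF libraries. PTH1R had 86.3 ± 6.01 TPM (SD, n = 6) in WT, 84.6 ± 11.7 TPM (SD, n = 6) in HET and 96.3 ± 16.6 TPM (SD, n = 11) in CF libraries. The cotransporter, its tether and the parathyroid hormone receptor were thus the members with the highest levels, and their order held in 23 of 23 libraries. SLC34A3 averaged 59.5 TPM over all libraries and KL 53.1 TPM, with SLC34A3 the higher of the pair in 19 of 23 libraries. FGFR1 averaged 26.7 TPM and SLC20A1 24.8 TPM, with FGFR1 the higher in 16 of 23 libraries. By label FGFR1 was the higher in 4 of 6 WT, 3 of 6 HET and 9 of 11 CF libraries, with ratios of the mean TPM of 0.988, 0.959 and 1.197. XPR1 averaged 9.25 TPM and SLC20A2 5.71 TPM, and XPR1 was the higher in 23 of 23 libraries although their ranges overlapped. SLC34A2 was the lowest, at 0.763 ± 0.484 TPM (SD, n = 6) in WT, 0.583 ± 0.274 TPM (SD, n = 6) in HET and 2.0 ± 1.97 TPM (SD, n = 11) in CF libraries, a rank of 15412 of 20921. It lay below SLC20A2 in 22 of 23 libraries, the exception being CF pig 11 at 7.17 TPM.

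**Figure D1:**
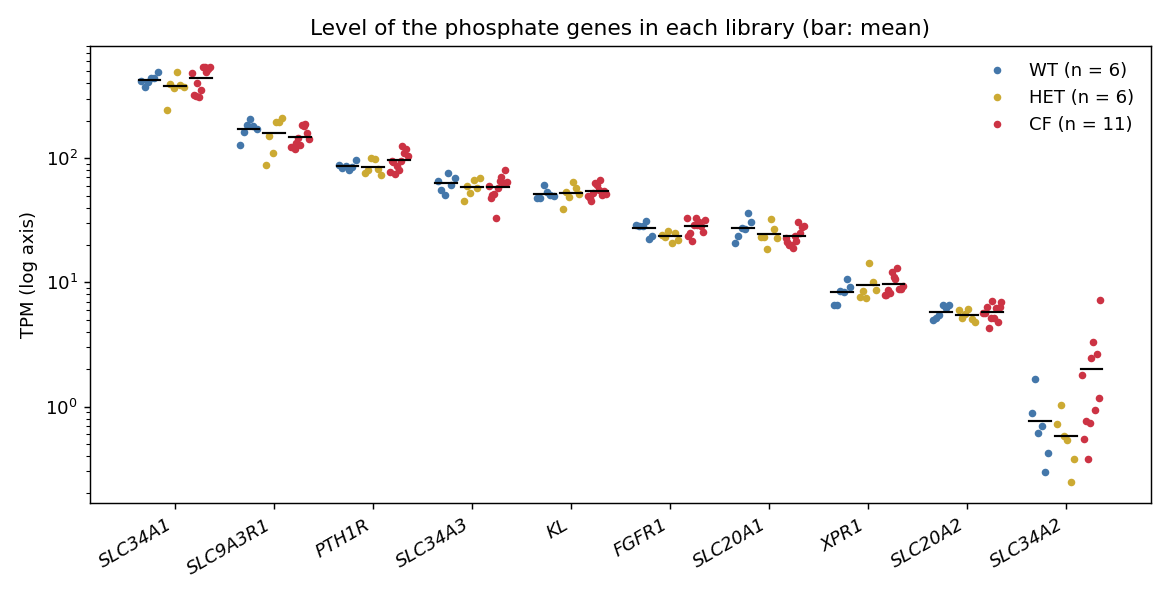
TPM of the 10 members on a log axis in each library, by label (6 WT, 6 HET and 11 CF libraries), ordered by mean, with bars at the group means. SLC34A1 lies highest in every library, and SLC34A2 shows the widest spread, from 0.245 to 7.17 TPM.

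Among the 5 importers, SLC34A1 made up 82.0 ± 1.99% of the summed TPM (SD, n = 23), between 76.5 and 84.9% in single libraries. SLC34A3 made up 11.7 ± 1.44%, SLC20A1 4.92 ± 0.862% and SLC20A2 1.15 ± 0.265% (SD, n = 23 for each). SLC34A2 made up 0.243 ± 0.237% (SD, n = 23), with 1.11% at most. The importers' RNA was thus mostly that of SLC34A1 under each label.

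Genotype comparisons were made with edgeR's quasi-likelihood test over all 20921 genes, and a gene is said to be called where its Benjamini-Hochberg adjusted p was under 0.05. In CF against non-CF libraries, 0 of 10 members were called beside 73 genes in all, which is 0.349% of those tested. At an unadjusted p under 0.05 there were 3 of 10 members (SLC34A2, PTH1R and FGFR1) beside 13.7% of all genes. DESeq2 called 1 of 10, SLC34A2, beside 3.13% of the 16459 genes it tested, and limma-voom called 0 of 10 beside 0.220%. An exact Mann-Whitney U test, the test named in the study's methods, called 0 of 10 beside 0.220% of genes, and 2 of 10 (SLC34A2 and PTH1R) at an unadjusted p under 0.05 beside 11.6%. The median log2 fold change of the members was 0.12, with 7 of 10 higher in CF libraries, and that of all genes was -0.0005.

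In CF against WT libraries edgeR called 0 of 10 members beside 0.349% of genes, with 3 of 10 (SLC34A2, XPR1 and PTH1R) at an unadjusted p under 0.05 beside 14.1%. For HET against WT it called 0 of 10 beside 0.00478%, with XPR1 the 1 member at an unadjusted p under 0.05 beside 7.99%. For CF against HET it called 0 of 10 beside 0% of genes, with SLC34A2 the 1 member at an unadjusted p under 0.05 beside 9.89%. DESeq2 called 0 of 10 members in CF against WT beside 2.93% of genes, in HET against WT beside 0.158% and in CF against HET beside 0.311%. Limma-voom called 0 of 10 in the same comparisons beside 0.315%, 0.00478% and 0% of genes. The comparisons share their CF, HET or WT libraries and so are not independent of each other. Their p-values set each difference against the spread between these libraries, and the labels give each library another pig. Litter and sex were not terms in the fits.

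The most abundant importer, SLC34A1, is the main sodium-phosphate cotransporter of the proximal tubule brush border. It is gene 733703, at 80548208 to 80563380 on the minus strand of chromosome 2. Its lowest, median and highest values were 810, 848 and 990 CPM in WT libraries, 540, 879 and 984 CPM in HET libraries and 630, 995 and 1289 CPM in CF libraries. The groups overlapped, with CF libraries on both sides: 6 of 11 lay above the highest non-CF library and 4 of 11 (CF pigs 2, 3, 5 and 6) below the lowest WT library. The log2 fold change for CF against non-CF was 0.17 with a 95% interval from -0.08 to 0.42 (adjusted p 0.584), and CF was above the non-CF median in 7 of 11 libraries. For CF against WT it was 0.15 (SE 0.150, adjusted p 0.716) and for HET against WT -0.05 (SE 0.170, adjusted p 0.963).

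SLC34A1 was also read within each set of pig numbers, and its CF values overlapped between the sets. In the later set the 5 CF libraries had 995, 1030, 1045, 1226 and 1289 CPM, and the 5 non-CF libraries had 860, 862, 896, 984 and 990 CPM. The later groups did not overlap, although the highest non-CF library lay within 6 CPM of the lowest CF library. In the earlier set the 6 CF libraries ran from 630 to 1262 CPM with a median of 719, and the 7 non-CF libraries from 540 to 897 CPM with a median of 836, so the earlier groups overlapped. Fitted within the later set alone, the log2 fold change was 0.29 (SE 0.0954, adjusted p 0.130), and within the earlier set alone 0.04 (SE 0.160, adjusted p 0.967). The difference between the sets was 0.25 with a 95% interval from -0.19 to 0.68 (adjusted p 0.744).

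SLC34A2 codes for a sodium-phosphate cotransporter best known from the small intestine and the lung. It is gene 641347, at 19481127 to 19507903 on the plus strand of chromosome 8. Its lowest, median and highest values were 0.516, 1.09 and 3.28 CPM in WT libraries (20 to 159 counts), 0.467, 1.06 and 2.03 CPM in HET libraries (24 to 99 counts) and 0.771, 2.05 and 12.1 CPM in CF libraries (38 to 410 counts). The groups overlapped at the low end, and 5 of 11 CF libraries lay above every non-CF library, namely CF pigs 1, 6, 7, 9 and 11. The log2 fold change for CF against non-CF was 1.55 with a 95% interval from 0.70 to 2.39 (SE 0.410), higher than the non-CF median in 10 of 11 CF libraries. Its unadjusted p was 0.000874 and its adjusted p 0.0827, so it was not called by edgeR, while DESeq2 gave 1.56 with an adjusted p of 0.0200 and limma-voom 1.19 with an adjusted p of 0.218. Leaving out each of the 23 libraries in turn gave log2 fold changes from 1.18 (without CF pig 11) to 1.78 (without WT pig 16), and the adjusted p went under 0.05 for 1 of them, without CF pig 4 (0.0414).

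For CF against WT, SLC34A2's log2 fold change was 1.40 (SE 0.527, adjusted p 0.214), with 10 of 11 CF libraries above the WT median. For CF against HET it was 1.70 (SE 0.538, adjusted p 0.329), with 10 of 11 above the HET median. For HET against WT it was -0.30 with a 95% interval from -1.52 to 0.91 (adjusted p 0.925), and 3 of 6 HET libraries lay above the WT median.

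Within the later pig numbers, SLC34A2 had 1.5, 2.05, 5.74, 6.88 and 12.1 CPM in the 5 CF libraries and 0.467, 0.516, 0.721, 0.798 and 0.934 CPM in the 5 non-CF libraries. These groups did not overlap. The CF libraries at 5.74 CPM or more (pigs 7, 9 and 11) lay on the negative side of scaling axis 1. The other later CF libraries (pigs 8 and 10) lay on the positive side. The later HET libraries (pigs 19, 20 and 21) also lay on the negative side, at 0.934, 0.467 and 0.798 CPM. In the earlier set, CF pigs 1 and 6, at 4.01 CPM each, lay on the negative and the positive side. WT pig 16, at 3.28 CPM, lay on the positive side and CF pig 4, at 0.771 CPM, on the negative side. A link of axis 1 with SLC34A2 was not tested. Within the earlier pig numbers the 6 CF libraries ran from 0.771 to 4.01 CPM with a median of 1.36, and the 7 non-CF libraries from 1.06 to 3.28 CPM with a median of 1.38. The earlier groups overlapped, with 3 of 6 CF libraries above the non-CF median. The fit of the later set alone gave a log2 fold change of 3.04 (SE 0.504, adjusted p 0.00986), and leaving out each later library in turn gave 2.56 to 3.29, with SLC34A2 called each time. The fit of the earlier set alone gave 0.32 (SE 0.390, adjusted p 0.858). The difference of the CF effect between the sets, tested as an interaction over all 23 libraries, was 2.71 with a 95% interval from 1.31 to 4.12 and an unadjusted p of 0.000544, but it was not called (adjusted p 0.140). It ran from 2.24 without CF pig 11 to 3.01 without CF pig 6, and was called only without CF pig 1 (3.01, adjusted p 0.0494).

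Counted over the members, the fit of the later set called 2 of 10, SLC34A2 and PTH1R, beside 2.27% of 20882 genes, and 4 of 10 had an unadjusted p under 0.05 (also SLC34A1 and FGFR1) beside 17.4%. The same fit for CF against HET called 1 of 10, SLC34A2, beside 2.56%. For CF against WT, with 2 WT libraries in the later set, edgeR did not call SLC34A2 (adjusted p 0.108). In the later set 3 of 10 members (SLC34A1, SLC34A2 and PTH1R) had CF and non-CF ranges that did not overlap, beside 4.64% of genes. The fit of the earlier set called 0 of 10 beside 0% of 21038 genes, with XPR1 the 1 member at an unadjusted p under 0.05 beside 9.31%. In that set 0 of 10 members had ranges apart, beside 0.631% of genes. The interaction called 0 of 10 members beside 0.0191% of genes, and 3 of 10 (SLC34A2, XPR1 and PTH1R) had an unadjusted p under 0.05 beside 10.1%.

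**Figure D2:**
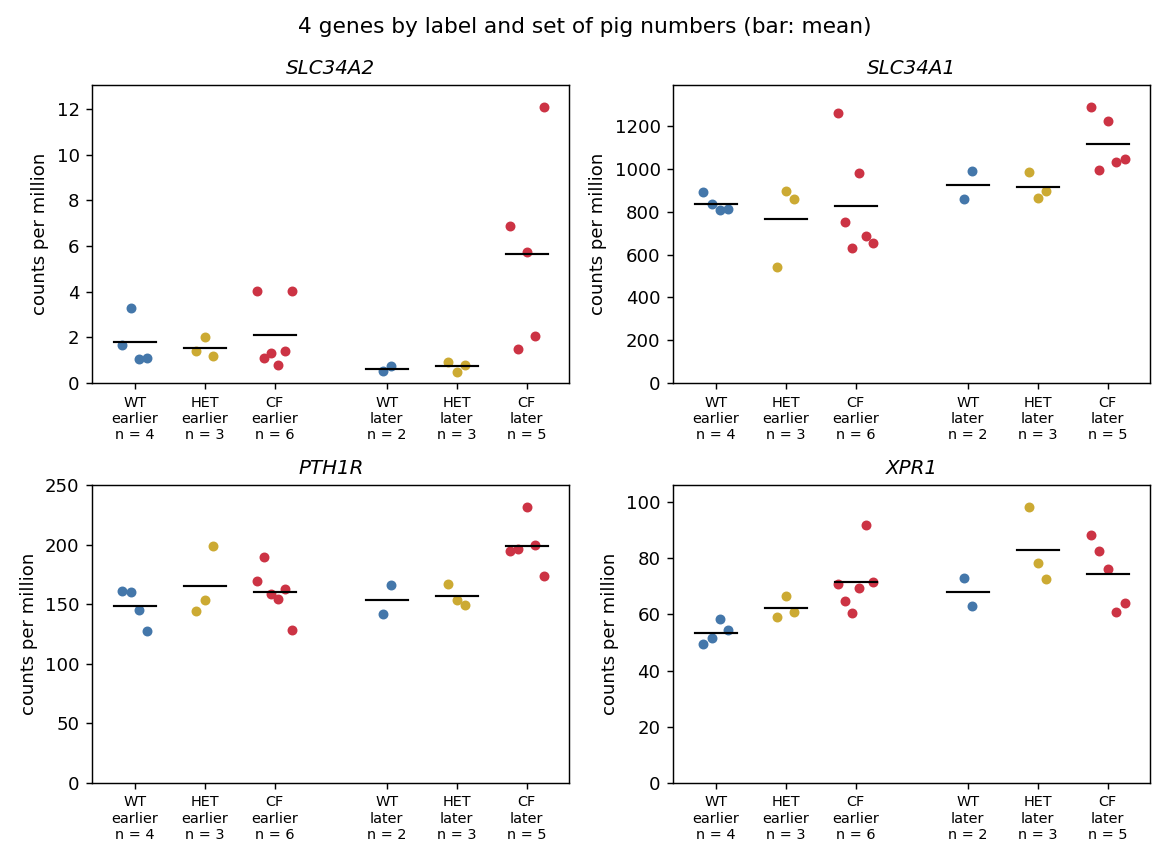
CPM of SLC34A2, SLC34A1, PTH1R and XPR1 in each library, by label and by set of pig numbers (earlier: 4 WT, 3 HET and 6 CF; later: 2 WT, 3 HET and 5 CF), with bars at the group means. Later CF libraries lie above later non-CF libraries for SLC34A2, SLC34A1 and PTH1R but not for XPR1.

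**Figure D3:**
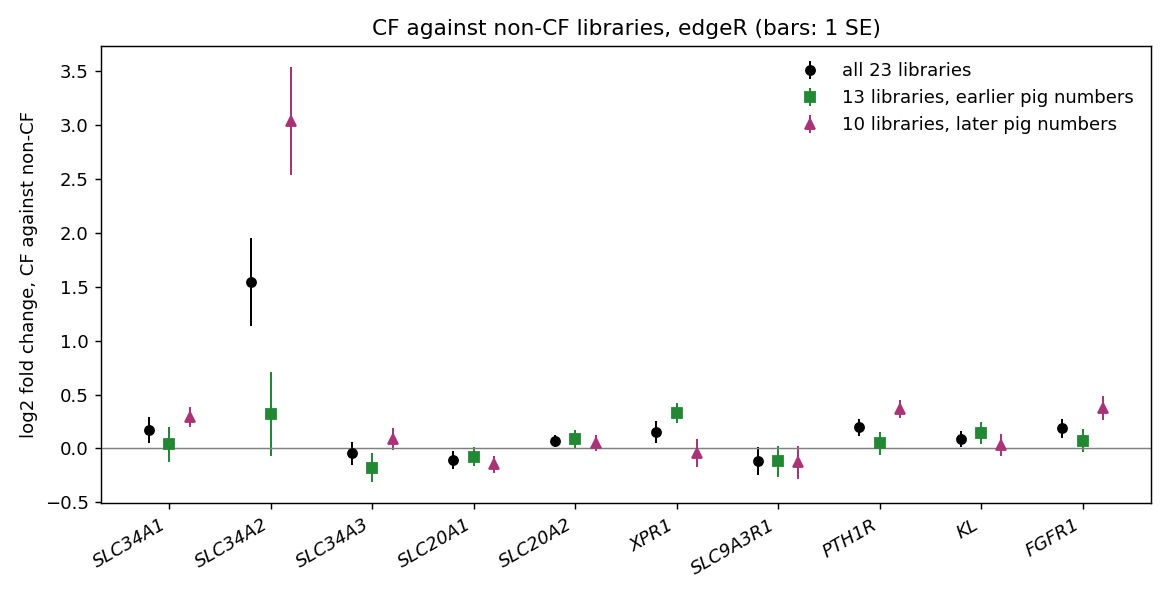
Log2 fold change of each member for CF against non-CF libraries from edgeR, with bars of 1 SE, for all 23 libraries and for the 13 earlier and 10 later libraries fitted alone. SLC34A2 stands at 1.55 in all libraries, 0.32 in the earlier and 3.04 in the later set.

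The summed level of the proximal tubule markers overlapped between the later groups. It was 2958 ± 304 TPM (SD, n = 5) in later CF and 2988 ± 419 TPM (SD, n = 5) in later non-CF libraries. Single markers did separate the later groups: 10 of 67 tested markers had CF and non-CF ranges that did not overlap, 2 higher and 8 lower in CF, beside 4.64% of all genes. In the earlier set it was 0 of 67 beside 0.631%. Of the proximal tubule list this was AQP1 (243 to 399 CPM in later CF and 108 to 203 CPM in later non-CF libraries). Of the collecting duct list these were AQP2 (20.5 to 38.6 and 40.8 to 64.8 CPM), AQP3 (19.3 to 27.2 and 29.6 to 41.7 CPM) and HSD11B2 (68.7 to 94.6 and 55.2 to 59.0 CPM). Lower in the later CF libraries were also 3 of 8 markers of Henle's loop and the distal tubule, KDR of the endothelial list and PTPRC of the immune list. These genes were chosen for mention after their values were seen. Over all libraries the proximal tubule sum was 2511 ± 520 TPM (SD, n = 6) in WT, 2792 ± 453 TPM (SD, n = 6) in HET and 2748 ± 416 TPM (SD, n = 11) in CF libraries. Of the 14 genes, 0 were called in CF against non-CF by edgeR beside 0.349% of all genes, with 2 at an unadjusted p under 0.05 beside 13.7%, and 9 of 14 were higher in CF libraries. Against WT libraries 13 of 14 were higher in CF (3 at an unadjusted p under 0.05 beside 14.1% of all genes, median log2 fold change 0.21) and 13 of 14 in HET (5 beside 7.99%, median 0.35, 0 called). In CF against WT 1 of 14 was called, beside 0.349% of all genes: AQP1, whose lowest, median and highest values were 108, 124 and 203 CPM in WT and 164, 243 and 399 CPM in CF libraries (log2 fold change 0.93, adjusted p 0.0287). Those ranges overlapped. Summed markers of Henle's loop and the distal tubule stood at 628 ± 98.9 TPM (SD, n = 11) in CF and 700 ± 105 TPM (SD, n = 12) in non-CF libraries, with 7 of 8 genes lower in CF and 0 called by edgeR, 2 of 8 having an unadjusted p under 0.05 beside the same 13.7%. The part of these markers in the members' values was not tested, and in whole cortex fewer cells of a type and less RNA per cell cannot be told apart.

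The remaining importers showed smaller differences. SLC34A3, the second cotransporter of the proximal tubule brush border, is gene 641343 and lies on an unplaced scaffold at 672184 to 677577 on the minus strand. It ran from 78.4 to 180 CPM over all libraries, and its log2 fold change for CF against non-CF was -0.04 with a 95% interval from -0.26 to 0.18 (adjusted p 0.913). Its sign differed between the sets, at -0.18 (SE 0.135) in the earlier and 0.09 (SE 0.102) in the later set. SLC20A1 (gene 100518065, chromosome 3, 43844716 to 43860547, minus strand) ran from 56.3 to 102 CPM, with a log2 fold change of -0.11 and a 95% interval from -0.28 to 0.07 (adjusted p 0.632), at -0.08 (SE 0.0876) in the earlier and -0.15 (SE 0.0813) in the later set. SLC20A2 (gene 100738984, chromosome 17, 11435435 to 11549623, minus strand) ran from 34.4 to 48.6 CPM, with a log2 fold change of 0.06 and a 95% interval from -0.05 to 0.18 (adjusted p 0.671), at 0.09 (SE 0.0854) in the earlier and 0.05 (SE 0.0729) in the later set. Every label overlapped every other for these 3 genes.

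XPR1, which lets phosphate out of cells, is gene 100526125 at 122237954 to 122461669 on the plus strand of chromosome 9. Its lowest, median and highest values were 49.5, 56.3 and 73.1 CPM in WT libraries, 59.1, 69.6 and 98.4 CPM in HET libraries and 60.5, 70.7 and 91.9 CPM in CF libraries. The WT libraries lay lowest and overlapped both other labels, with 11 of 11 CF and 6 of 6 HET libraries above the WT median. The log2 fold change was 0.32 for CF against WT, with a 95% interval from 0.09 to 0.55 (unadjusted p 0.00874, adjusted p 0.182), and 0.32 for HET against WT, with a 95% interval from 0.06 to 0.58 (unadjusted p 0.0192, adjusted p 0.587). Neither passed the test, and for CF against HET it was 0.00 with a 95% interval from -0.23 to 0.23 (adjusted p 0.996). The HET value shares its WT libraries with the CF value. The proximal tubule markers were also higher than in WT, 13 of 14 in CF and 13 of 14 in HET libraries, and their part in XPR1's values was not tested.

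Against all non-CF libraries XPR1's log2 fold change was 0.15 (SE 0.100, adjusted p 0.537). In the earlier set the 6 CF libraries had 60.5, 64.9, 69.4, 70.7, 71.5 and 91.9 CPM, and the 7 non-CF libraries ran from 49.5 to 66.7 CPM with a median of 58.4. All 6 of these CF libraries were above the non-CF median and 4 of 6 above the highest non-CF library. In the later set the 5 CF libraries ran from 60.8 to 88.2 CPM and the 5 non-CF libraries from 63.2 to 98.4 CPM, with 3 of 5 CF libraries above the non-CF median. Fitted alone, the earlier set gave 0.33 (SE 0.0965, adjusted p 0.274) and the later set -0.05 (SE 0.129, adjusted p 0.908). The interaction was -0.38 with a 95% interval from -0.71 to -0.04 (unadjusted p 0.0314, adjusted p 0.429), so the difference between the sets was not called.

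SLC9A3R1, the scaffold that holds cotransporters at the brush border, is gene 100233201 at 6466138 to 6483539 on the minus strand of chromosome 12. It ran from 162 to 416 CPM over all libraries, both extremes being HET libraries (pigs 13 and 21). Its log2 fold change for CF against non-CF was -0.12 with a 95% interval from -0.38 to 0.15 (adjusted p 0.756), and CF was below the non-CF median in 9 of 11 libraries. Fitted alone, the earlier set gave -0.12 (SE 0.143) and the later set -0.13 (SE 0.151).

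PTH1R, the receptor for parathyroid hormone, is gene 397675 at 29749940 to 29775361 on the plus strand of chromosome 13. Its lowest, median and highest values were 127, 153 and 166 CPM in WT libraries, 144, 154 and 199 CPM in HET libraries and 128, 173 and 232 CPM in CF libraries. The groups overlapped, with 10 of 11 CF libraries above the non-CF median and 2 of 11 above the highest non-CF library. The log2 fold change for CF against non-CF was 0.19 with a 95% interval from 0.03 to 0.36 (unadjusted p 0.0224, adjusted p 0.263). For CF against WT it was 0.25 (SE 0.0987, adjusted p 0.248), with 10 of 11 CF libraries above the WT median.

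In the later set PTH1R had 173, 195, 196, 200 and 232 CPM in CF libraries and 142, 149, 154, 166 and 167 CPM in non-CF libraries. These groups did not overlap, while in the earlier set the CF range of 128 to 190 CPM lay inside the non-CF range of 127 to 199 CPM. The later set fitted alone gave a log2 fold change of 0.36 (SE 0.0860, adjusted p 0.0455), and the earlier set 0.05 (SE 0.105, adjusted p 0.933). With each later library left out in turn the log2 fold change ran from 0.30 to 0.41. The call held without WT pig 23 (adjusted p 0.0493) and without CF pig 11 (adjusted p 0.0424), and for each of the other 8 libraries left out the adjusted p was between 0.0610 and 0.112. The interaction was 0.31 with a 95% interval from 0.02 to 0.60 (unadjusted p 0.0366, adjusted p 0.450).

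KL, the co-receptor that lets FGF23 bind its receptor, is gene 100519728 at 9427236 to 9479251 on the plus strand of chromosome 11. The lowest, median and highest values of KL were 173, 177 and 209 CPM in WT libraries, 150, 212 and 222 CPM in HET libraries and 156, 214 and 241 CPM in CF libraries. The groups overlapped, with 7 of 11 CF libraries above the non-CF median. The log2 fold change for CF against non-CF was 0.09 with a 95% interval from -0.07 to 0.24 (adjusted p 0.677), and for CF against WT 0.16 (SE 0.0902, adjusted p 0.434). In the earlier set alone CF against non-CF gave 0.14 (SE 0.102) and in the later set 0.03 (SE 0.104).

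FGFR1, a receptor tyrosine kinase that KL turns into an FGF23 receptor, is gene 100153248 at 48053895 to 48106634 on the plus strand of chromosome 15. FGFR1 had lowest, median and highest values of 61.3, 79.8 and 90.0 CPM in WT libraries, 57.0, 74.5 and 85.1 CPM in HET libraries and 69.4, 86.1 and 119 CPM in CF libraries. The groups overlapped, and the highest library was CF pig 1. The log2 fold change for CF against non-CF was 0.19 with a 95% interval from 0.00 to 0.37 (unadjusted p 0.0450, adjusted p 0.352), with 8 of 11 CF libraries above the non-CF median. In the later set 5 of 5 CF libraries were above the non-CF median and 4 of 5 above its highest library (log2 fold change 0.37, SE 0.111, adjusted p 0.101), and in the earlier set 3 of 6 were above the median (0.07, SE 0.107, adjusted p 0.900).

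The sets of pig numbers were then compared with each other. Since the sets were drawn from the expression of these same libraries, the p-values and calls between them are a description only. In a fit with the 3 genotype labels and the set, edgeR called 2 of 10 members, SLC20A1 and SLC9A3R1, beside 9.91% of genes, and 5 of 10 had an unadjusted p under 0.05 (also SLC34A1, SLC34A3 and XPR1) beside 26.7%. The median log2 difference of the members was 0.23, with 8 of 10 higher in the later set, and that of all genes was -0.0005.

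SLC20A1 was 69.3 ± 8.07 CPM (SD, n = 13) in the earlier and 84.3 ± 8.30 CPM (SD, n = 10) in the later libraries. These overlapped, with 10 of 10 later libraries above the earlier median and 5 of 10 above the highest earlier library, and the log2 difference was 0.29 (SE 0.0637, adjusted p 0.00797). SLC9A3R1 was 247 ± 47.7 CPM (SD, n = 13) in the earlier and 318 ± 59.8 CPM (SD, n = 10) in the later libraries. There 9 of 10 later libraries were above the earlier median, and the log2 difference was 0.38 (SE 0.113, adjusted p 0.0357). SLC34A1 differed by 0.32 (SE 0.109, adjusted p 0.0635), SLC34A3 by 0.26 (SE 0.0982, adjusted p 0.0852) and XPR1 by 0.23 (SE 0.0815, adjusted p 0.0759), each with 10 of 10 later libraries above the earlier median, and these 3 were not called.

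The marker lists were compared between the sets by the same fit, which called 9.91% of all genes. The summed proximal tubule markers were 2485 ± 406 TPM (SD, n = 13) in the earlier and 2973 ± 346 TPM (SD, n = 10) in the later libraries, and the stroma and smooth muscle markers 807 ± 185 TPM (SD, n = 13) and 636 ± 67.8 TPM (SD, n = 10). Of 14 proximal tubule genes 9 were higher and 5 lower in the later set, with 2 called higher and 1 called lower. The called genes included SLC22A6 (log2 difference 1.37, adjusted p 0.00672), higher, and SLC5A1 (-0.46, adjusted p 0.0372), lower. Of 8 markers of Henle's loop and the distal tubule 5 were higher and 1 was called, PVALB (0.93, adjusted p 0.00644), higher. Of 8 of the collecting duct 5 were higher and 1 was called, AQP2 (-0.62, adjusted p 0.0453), lower. Called lower were also 1 of 6 stroma and smooth muscle genes, COL3A1 (-0.42, adjusted p 0.0176), and 1 of 5 endothelial genes, CDH5 (-0.40, adjusted p 0.0160). The same held for 1 of 4 tested adrenal cortex genes, STAR (-0.34, adjusted p 0.0432). In the podocyte, nephron progenitor, immune and erythroid lists 0 genes were called. The part of the markers in the members' set differences was not tested.

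The rest of the pathway was read from 5 lists. In CF against non-CF libraries edgeR called 0 genes in every list beside 0.349% of all genes, and the counts at an unadjusted p under 0.05 that follow stand beside 13.7% of all genes. Of 8 partners of the scaffold and brush border 4 were higher in CF libraries, and MYO6 was the 1 gene at an unadjusted p under 0.05 (log2 fold change 0.14, adjusted p 0.274). Of 14 genes of parathyroid hormone signalling 13 were tested and 6 were higher, with PRKACB (0.15, adjusted p 0.126) and PTH2R (-0.45, adjusted p 0.363) at an unadjusted p under 0.05. Of 16 genes of the FGF23 and Klotho axis and the FGF receptor response 8 were higher and 4 had an unadjusted p under 0.05, the smallest being those of FRS2 (0.15, adjusted p 0.105), ETV4 (-0.41, adjusted p 0.108) and DUSP6 (-0.43, adjusted p 0.141). None of these passed the test.

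The vitamin D list holds the enzyme that activates the hormone, CYP27B1, the enzyme that breaks it down, CYP24A1, and the receptor VDR. CYP27B1 had a log2 fold change of 0.93 (SE 0.309, adjusted p 0.156), with 8 of 11 CF libraries above the non-CF median (5 of 5 in the later and 3 of 6 in the earlier set), and CYP24A1 one of -0.41 (SE 0.157, adjusted p 0.228), with 9 of 11 below it. Of 12 other mineral regulators 11 were tested, 8 were lower in CF libraries and 4 had an unadjusted p under 0.05. The smallest belonged to CALB1, a calcium-binding protein of the distal tubule, followed by CASR (-0.26, adjusted p 0.142) and TRPV5 (-0.61, adjusted p 0.207). CALB1's lowest, median and highest values were 103, 150 and 320 CPM in WT libraries, 63.1, 133 and 404 CPM in HET libraries and 16.7, 50.4 and 127 CPM in CF libraries. Those groups overlapped, with 11 of 11 CF libraries below the non-CF median of all libraries (5 of 5 in the later set and 3 of 6 in the earlier set below the set's own median), and the log2 fold change was -1.40 (SE 0.345, adjusted p 0.0636). Over the 5 lists, 6 of 51 tested genes had CF and non-CF ranges that did not overlap in the later set, beside 4.64% of all genes, and 1 of 51 in the earlier set, beside 0.631%.

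In CF against WT libraries 1 of 51 tested genes of the 5 lists was called, beside 0.349% of all genes: ETV4, a transcription factor induced by FGF receptor signalling. Its lowest, median and highest values were 34.7, 43.5 and 57.8 CPM in WT libraries, 25.0, 36.0 and 41.6 CPM in HET libraries and 22, 29.1 and 39.8 CPM in CF libraries. The labels overlapped, with 11 of 11 CF and 6 of 6 HET libraries below the WT median. Its log2 fold change was -0.58 for CF against WT (SE 0.131, adjusted p 0.0468) and -0.37 for HET against WT (SE 0.152, adjusted p 0.587). In HET against WT and in CF against HET edgeR called 0 genes of the 5 lists. Between the sets of pig numbers 3 of 51 tested genes were called, beside 9.91% of all genes: SGK1 (log2 difference 0.74, adjusted p 4.85e-05) and PDZK1 (0.30, adjusted p 0.0372) higher and PLCB1 (-0.18, adjusted p 0.0499) lower in the later set.

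Likeness between genes was described by Pearson's r of log2 CPM over 23 libraries, each taken as its deviation from the mean of its label and set, among 18124 genes with a mean of at least 1 CPM. The libraries share their depth and tissue composition, so r is a description only. Among the members themselves the highest values were 0.73 for SLC9A3R1 with KL, 0.69 for XPR1 with KL and 0.64 for SLC34A1 with SLC34A3, and the lowest was -0.42 for SLC20A2 with KL. SLC34A1 and KL had 0.60, and SLC34A1 and SLC34A2 0.26.

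The 3 genes most like each member over the 23 libraries were found by the same measure. For SLC34A1 they were SLC39A5 (0.88), ETFB (0.85) and ACADVL (0.84), and for SLC34A2 RIMS3 (0.87), WDFY4 (0.85) and DDIT4L (0.83). For SLC34A3 they were PLEKHG4B (0.86), UAP1L1 (0.84) and PCYOX1L (0.84), and for SLC20A1 IDNK (0.92), C9H11orf1 (0.87) and TAF5 (0.87). For XPR1 they were ZBTB41 (0.87), HIPK3 (0.84) and LRRC19 (0.83). SLC20A2 had the lowest values of any member, with LOC110261772 (0.73), SH2B2 (0.72) and SLC29A4 (0.71). For SLC9A3R1 they were FAM84B (0.84), GALNT10 (0.84) and GPAT4 (0.83), and for PTH1R STARD8 (0.83), ANXA4 (0.82) and LOC100522735 (0.82). For KL they were LOC100517803 (0.89), ACSS1 (0.79) and SLC26A7 (0.78). FGFR1 had the highest value of any member, with TEAD2 (0.92), MN1 (0.92) and DACT1 (0.92).

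Transcript models were compared within each gene as shares of its TPM. SLC20A2, XPR1, SLC9A3R1, PTH1R, KL and FGFR1 have 1 model each. SLC20A1 has 2, which held 76.6 ± 3.67% and 23.4 ± 3.67% of its TPM (SD, n = 23). SLC34A3 has 10, of which 2 averaged at least 10%, with 51.4 ± 8.67% and 22.5 ± 2.61% (SD, n = 23). The 2 models of SLC34A2 differ by a first exon: the model of 13 exons held 70.8 ± 22% and the model of 12 exons 29.2 ± 22% (SD, n = 23).

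SLC34A1 has 7 models, and 2 averaged at least 10% of its TPM, with 53.9 ± 2.40% and 31.9 ± 4.53% (SD, n = 23). Both have 12 exons, and each has an exon that the other lacks, shown here because they set apart the RNA species that most of SLC34A1's reads were assigned to. The exon of 125 bases near the gene's end belongs to the more abundant model and lies in 2 of 7 models, which together held 56.7 ± 4.05% of the TPM (SD, n = 23). The exon of 130 bases near its start belongs to the other and lies in 6 of 7 models, which held 46.1 ± 2.40% (SD, n = 23). The sequences were read from the Sscrofa11.1 genome on the minus strand, 5′ to 3′, and capitals mark the start codon that the second model uses.
chr2:80550082-80550206: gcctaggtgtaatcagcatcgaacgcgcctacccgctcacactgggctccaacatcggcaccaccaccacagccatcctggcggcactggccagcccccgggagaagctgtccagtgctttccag
chr2:80562194-80562323: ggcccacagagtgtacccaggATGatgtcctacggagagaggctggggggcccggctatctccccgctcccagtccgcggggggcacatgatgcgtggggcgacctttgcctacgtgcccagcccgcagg

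Some annotated neighbours share sequence with members. LOC106507781, on the plus strand, shares 101 bases with SLC34A3 and had 14 to 64 counts per library. LOC110257462, also on the plus strand, lies inside SLC20A2 over 930 bases and had 4 to 32 counts. The strand setting used in counting was not found in the sources used here. RGS14, a brush-border partner in the lists, lies 11031 bases from SLC34A1 on chromosome 2.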

How the data were processed

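The authors quantified stranded total RNA libraries with kallisto and deposited, for each transcript, an estimated count and TPM. The deposited estimated counts were summed per gene symbol and rounded, since 64.0% of transcript values are not whole, and the deposited TPM were summed the same way. Gene IDs and positions are those of the RefSeq annotation of Sscrofa11.1, and the deposited effective length was used only to rebuild counts in 1 alternative.

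Tests used edgeR 4.0.16 (TMM factors, filterByExpr, quasi-likelihood, Benjamini-Hochberg over all genes tested) in R 4.3.3, with DESeq2 1.42.0 and limma 3.58.1 as alternatives. The exact Mann-Whitney U test was computed by counting all assignments of ranks, with ranks from scipy 1.17.1. For that test, counts were divided by each library's median ratio to the genes' geometric means, not scaled by TMM factors. Other steps used Python 3.11.15, numpy 2.4.6, pandas 2.3.3 and matplotlib 3.10.9. The steps were tested on simulated data, where edgeR recovered 191 of 200 changed genes in CF against non-CF, with 10 false calls. The Mann-Whitney U test recovered 189, with 11 false calls. The planted changes were larger than the CF against non-CF log2 fold change of every member but SLC34A2. No split by pig number was planted in that simulation. It therefore does not show how often changes as small as those of the other members would be called.

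The members and lists were chosen with earlier results of these data known. The genes named are the members, CFTR, listed genes that were called, and up to 3 genes per pathway list with the smallest unadjusted p in CF against non-CF; others are said to be chosen after their values were seen. Some listed genes, called ones included, are not reported here. Of the lists' genes SGK3, HBA1 and CYP11B1 were not in the transcript table.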

Additional observations from a re-analysis of the deposited data

Results flagged for a closer look

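In 66 groups of 5 to 7 libraries, the gap between the lowest or highest library and its nearest neighbour was divided by the range of the group. There were 5 groups with a library far from the others. Chance flags about 1 in 20 groups, but these groups share libraries and are not independent of each other. HET pig 13 was the lowest HET library for SLC34A1, at 540 CPM with the next at 860 CPM (0.721 of the range), and also the lowest of the earlier non-CF libraries (0.755). The same library was the lowest HET library for KL, at 150 CPM with the next at 200 CPM (0.698). CF pig 5 was the highest earlier CF library for XPR1, at 91.9 CPM with the next at 71.5 CPM (0.648). CF pig 4 was the lowest earlier CF library for CFTR, at 12.5 CPM with the next at 20.6 CPM (0.753). The cause was not tested.

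For 3 members the effect of CF against non-CF differed between the sets of pig numbers at an unadjusted p under 0.05 of edgeR's interaction term, and none of the 3 passed the adjustment over all genes. The difference in log2 fold change, later minus earlier, was 2.71 for SLC34A2 (adjusted p 0.140), -0.38 for XPR1 (adjusted p 0.429) and 0.31 for PTH1R (adjusted p 0.450). Later CF libraries were above the later non-CF median in 5 of 5 libraries for SLC34A2 and PTH1R and in 3 of 5 for XPR1, and earlier CF libraries above the earlier non-CF median in 3 of 6, 5 of 6 and 6 of 6.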

How the results depend on the processing

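Over other tests, scalings, filters, transcript lengths and sets of pig numbers, 281 of 300 log2 fold changes of members (CF against non-CF, CF against WT and HET against WT; those of CF against HET were not counted) kept their direction and their side of the threshold, 16 changed sign and 3 became called. The count of members called in CF against non-CF by edgeR, 0, became 1 by DESeq2 (SLC34A2) and 2 in the later set alone (SLC34A2 at 3.04 and PTH1R at 0.36), and ran from 0 to 1 when each library was left out. SLC34A2 by DESeq2 was 1.56. In CF against HET the count became 1 in the later set alone (SLC34A2) and was 0 whichever library was left out, as it was in CF against WT and HET against WT. The interaction's count ran from 0 to 1, and that of the later set alone from 1 to 2.

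For CF against non-CF the sign turned in the later set alone for SLC34A3 (0.0908) and XPR1 (-0.0463), and SLC34A3 ran from -0.0867 to 0.0163 over libraries left out, above 0 without CF pig 5. Over libraries left out the others, with none called but SLC34A2 without CF pig 4, ran from 0.12 to 0.21 for SLC34A1, 1.18 to 1.78 for SLC34A2, -0.14 to -0.07 for SLC20A1, 0.04 to 0.09 for SLC20A2, 0.11 to 0.22 for XPR1, -0.18 to -0.06 for SLC9A3R1, 0.15 to 0.23 for PTH1R, 0.06 to 0.12 for KL and 0.13 to 0.21 for FGFR1. For CF against WT the sign turned for SLC34A1 in the earlier set (-0.0189) and in the later set for SLC34A3 (0.18), SLC20A2 (-0.0152) and SLC9A3R1 (0.0869). For HET against WT it turned in the later set for SLC34A2 (0.23), SLC34A3 (0.15), SLC20A2 (-0.11) and FGFR1 (0.13), in the earlier set for KL (-0.0168) and SLC9A3R1 (-0.39), for SLC34A3 with length-scaled counts (0.0397), and for SLC9A3R1 by limma-voom (-0.0427), with upper-quartile factors (-0.0163) and with the set as a term (-0.0901). None of the values that changed sign was called, and the cause was not tested.

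Leaving out single libraries was added for the interaction and for the later set after seeing the data. The interaction ran from 2.24 to 3.01 for SLC34A2, -0.44 to -0.27 for XPR1 and 0.25 to 0.37 for PTH1R. In the later set SLC34A2 ran from 2.56 to 3.29, PTH1R from 0.30 to 0.41 and XPR1 from -0.118 to 0.0504. SLC34A2, with as few as 20 counts in a library, is the member whose values depth limits most.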

Other observations

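The SLC34A1 model of 13 exons, chosen for mention after its values were seen, held between 12.6 and 13.3% of the gene's TPM in 5 of 23 libraries (WT pigs 17, 18 and 23, HET pig 19 and CF pig 5) and between 0.00739 and 0.0643% in the other 18. It holds both exons whose sequences are shown. In those 5 libraries the model that averaged 31.9% held between 21.7 and 26.2%, against 28.8 to 37.7% in the other 18. The annotation gives this model 12 substitutions and 1 in-frame insertion or deletion against the genome assembly.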
